A study of Mus musculus with 18 samples.

Results

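Microglia, the resident macrophages of the brain, are recognised in undisturbed tissue by a group of transcripts that depend on signals from the surrounding brain and that are known to be lost when the cells react to injury. The group described here holds 9 of these genes (P2ry12, P2ry13, Cx3cr1, Gpr34, Tmem119, Siglech, Fcrls, Sall1 and Olfml3), taken by symbol from the 50559 genes of the deposited count table, and 9 of 9 passed the filter on low counts. They are called homeostatic microglia genes after that known use, and many of them are receptors with which a resting microglial process senses adenosine diphosphate, fractalkine or lysophosphatidylserine.

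The libraries are polyadenylated RNA of whole thalamus from wild-type mice, in a study of remodelin, an inhibitor of the acetyltransferase NAT10, after thalamic haemorrhage. The intervene group received Coll IV and remodelin, the model group received Coll IV, and the control group received saline, with 6 libraries in each. The labels do not expand Coll IV, nor do they give the age or sex of the mice, the dose, the route or the time of sampling. Each number labels a separate sample, but no label says that each is a separate mouse, so the p-values below measure the spread between these samples.

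Totals ranged from 28481225 to 118461420 counts per library, and the 9 genes had between 194 and 4995 counts in any library. Replicate numbers 4 to 6 stand apart from numbers 1 to 3, a division seen in these data and not given by the labels. Over 10 marker genes of thalamic neurons the summed level was 454 to 655 CPM (counts scaled to the library total, with TMM factors) in intervene libraries 4 to 6, 164 to 280 CPM in model libraries 4 to 6 and 118 to 132 CPM in control libraries 4 to 6. The same sum was 616 to 684 CPM in intervene libraries 1 to 3, 481 to 893 CPM in model libraries 1 to 3 and 745 to 908 CPM in control libraries 1 to 3. Comparisons are therefore given over all 6 libraries of a group and within each set of numbers. In bulk tissue, fewer microglia and less of a transcript per microglial cell cannot be told apart.

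P2ry12 and P2ry13 are neighbours on the minus strand of chromosome 3 and lie inside Med12l, a gene on the opposite strand, in the GENCODE vM21 annotation of GRCm38. Fcrls lies further along the same chromosome. The RefSeq table of GRCm38.p6 promoters matched 7 of the 9 genes, all except Tmem119 and Gpr34. The 250 bases before the start are shown for P2ry12 and P2ry13, whose levels followed each other most closely of all pairs, and for Fcrls, which belongs to another set of genes that varied together and whose window holds the most copies of the motif searched. Capitals mark AGGAAG, or its reverse complement CTTCCT, the purine-rich core bound by PU.1, the transcription factor encoded by Spi1 that macrophages depend on. The windows are written 5′ to 3′ along the gene's strand, at chr3:59262986-59263235 for P2ry12, chr3:59210883-59211132 for P2ry13 and chr3:87263525-87263774 for Fcrls, each on the minus strand.
P2ry12: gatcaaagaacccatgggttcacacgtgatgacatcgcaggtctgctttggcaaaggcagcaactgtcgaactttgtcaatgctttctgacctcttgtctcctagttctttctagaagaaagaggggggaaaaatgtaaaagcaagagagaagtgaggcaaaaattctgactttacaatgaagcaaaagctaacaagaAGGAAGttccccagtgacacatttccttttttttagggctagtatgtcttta
P2ry13: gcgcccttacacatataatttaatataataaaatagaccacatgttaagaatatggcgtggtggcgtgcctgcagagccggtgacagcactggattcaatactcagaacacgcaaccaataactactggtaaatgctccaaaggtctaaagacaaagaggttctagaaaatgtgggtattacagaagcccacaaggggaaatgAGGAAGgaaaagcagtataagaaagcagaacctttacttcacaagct
Fcrls: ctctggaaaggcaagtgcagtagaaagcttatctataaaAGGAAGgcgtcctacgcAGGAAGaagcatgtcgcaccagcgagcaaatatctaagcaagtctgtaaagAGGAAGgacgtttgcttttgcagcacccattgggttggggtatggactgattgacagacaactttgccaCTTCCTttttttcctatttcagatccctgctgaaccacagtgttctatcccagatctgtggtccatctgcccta
The motif was found 1 time for P2ry12, 1 time for P2ry13, 4 times for Fcrls and 1 time for Olfml3, and in 1 of the 3 listed starts of Sall1. It was not in the windows of Siglech and Cx3cr1. Of the 9 windows of these genes 5 held it, against 29.5% (9686) of all 32851 promoter windows of the same length, and a match of these letters is not a measured binding site. The P2ry12 window overlaps an exon of Med12l, and the bases that follow it were not found unbroken in a GENCODE transcript of P2ry12. The same held for the Sall1 window with the motif and for another Sall1 window. The RefSeq and GENCODE starts may differ there, which was not tested.

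Levels between genes were compared as FPKM, the deposited unit that allows for gene length. By the median over 18 libraries the order was Olfml3 at 6.48 FPKM, P2ry12 at 6.29 FPKM, Fcrls at 4.80 FPKM, Tmem119 at 4.54 FPKM, Cx3cr1 at 4.38 FPKM, P2ry13 at 2.32 FPKM, Siglech at 2.16 FPKM, Sall1 at 1.19 FPKM and Gpr34 at 0.643 FPKM. Several neighbours in this order were not separated by the spread: Olfml3 exceeded P2ry12 in 10 of 18 libraries, Fcrls exceeded Tmem119 in 9 of 18, Tmem119 exceeded Cx3cr1 in 9 of 18 and P2ry13 exceeded Siglech in 11 of 18. P2ry12 exceeded Fcrls in 16 of 18 libraries, and the steps below Cx3cr1, below Siglech and below Sall1 held in 18 of 18. Across all libraries the highest CPM of a gene was 1.70 to 2.50 times its lowest. The coefficient of variation was smallest for Siglech (12.9%) and largest for Gpr34 (28.2%), against a median of 22.4% over all genes tested.

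The question for each group comparison was whether the homeostatic genes differed after Coll IV, and whether remodelin altered them. Over all 6 libraries per group, 0 of 9 genes were called in any of the 3 comparisons, in which 0% of all 18452 genes tested passed the same threshold (edgeR quasi-likelihood F test, Benjamini-Hochberg adjusted p under 0.05). At an unadjusted p under 0.05, 0 of 9 genes differed between intervene and model, 0 of 9 between model and control, and 2 of 9 between intervene and control, where 531, 310 and 1551 of all genes did, and DESeq2 and limma-voom called 0 of 9 in each. The group ranges overlapped for 9 of 9 genes in 3 of 3 comparisons. That overlap was not counted over all genes, so it is no result about these 9 genes. The log2 fold changes had 95% intervals within -0.71 to 0.72 (intervene against model), -0.61 to 0.67 (intervene against control) and -0.58 to 0.57 (model against control), which are the outermost bounds over the 9 genes.

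**Figure D1:**
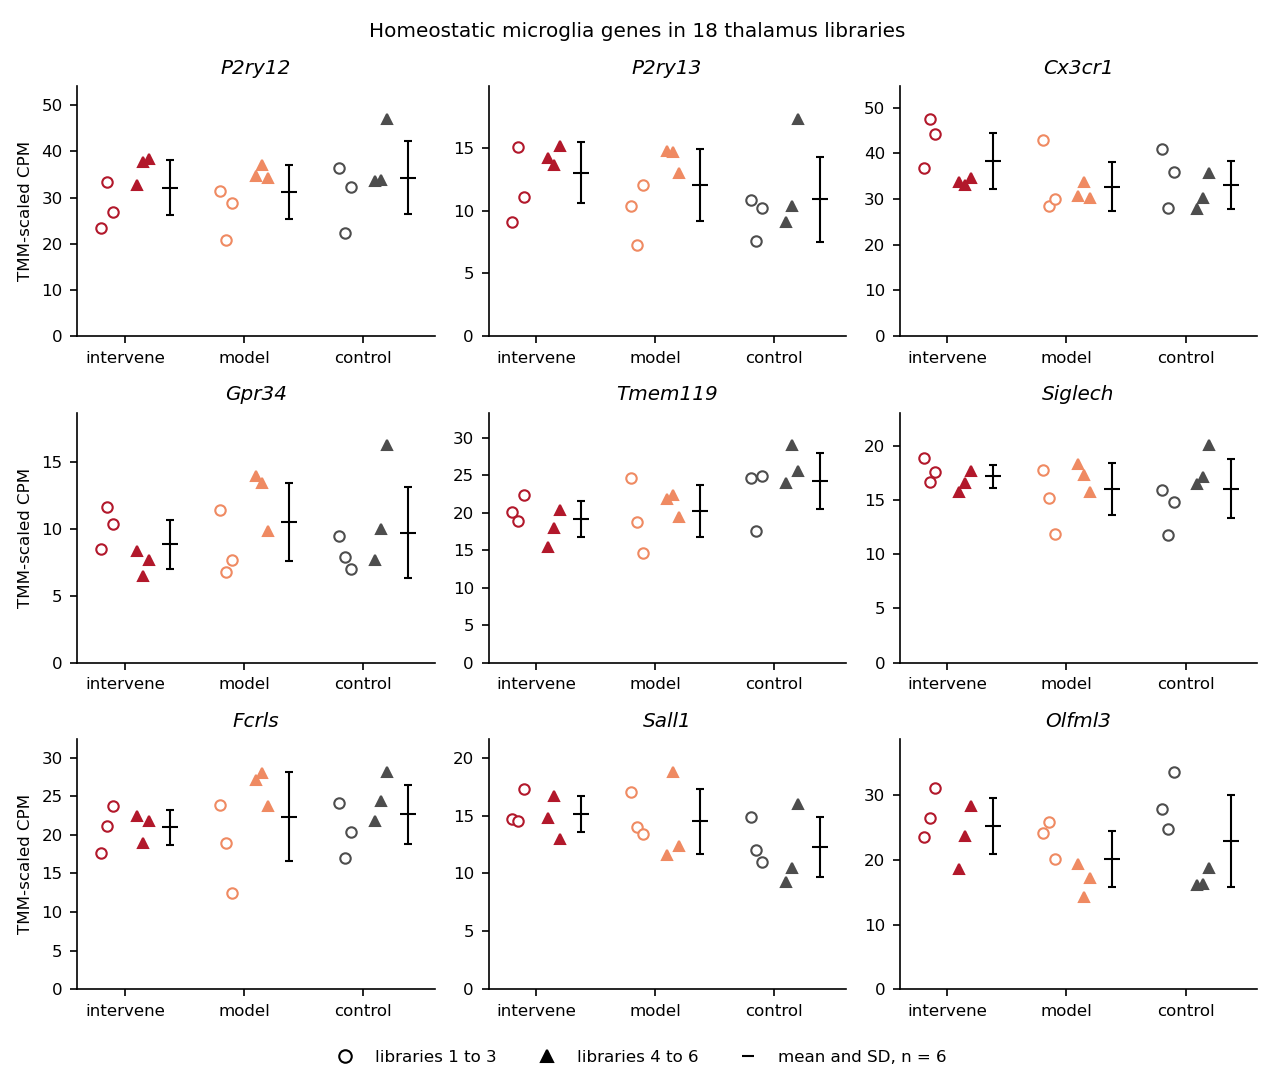
TMM-scaled CPM of each gene (y axes, starting at 0) in each library of the intervene, model and control groups, with open circles for libraries 1 to 3, filled triangles for libraries 4 to 6, and a bar for the mean and SD of 6 libraries. The groups overlap for every gene shown. In control, Olfml3 separates by set (16.1 to 18.8 CPM in libraries 4 to 6, 24.7 to 33.6 CPM in libraries 1 to 3), and P2ry13 and Gpr34 have a single high library (17.3 and 16.3 CPM).

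Among the purine and lipid receptors, P2ry12, the ADP receptor through which microglial processes move toward damage, had a lowest, median and highest level of 23.3, 33.1 and 38.4 CPM in intervene libraries, 20.8, 32.9 and 37.0 CPM in model libraries and 22.4, 33.7 and 47.1 CPM in control libraries. The groups covered almost the same range, and the control library numbered 6 held the highest value. Intervene differed from model by a log2 fold change of 0.04 ± 0.17 (SE; edgeR adjusted p = 0.992) and from control by -0.10 ± 0.17 (edgeR adjusted p = 0.872), and model differed from control by -0.14 ± 0.17 (edgeR adjusted p = 1). P2ry13, a related ADP receptor, averaged 13.04 ± 2.42 CPM in intervene, 12.01 ± 2.87 CPM in model and 10.9 ± 3.37 CPM in control libraries (SD, n = 6 each). Intervene against control gave P2ry13 a log2 fold change of 0.26 (95% interval -0.16 to 0.67), not called. Gpr34, a receptor for lysophosphatidylserine, averaged 8.85 ± 1.87 CPM in intervene, 10.5 ± 2.95 CPM in model and 9.72 ± 3.41 CPM in control libraries (SD, n = 6 each). It had the widest intervals of the group for intervene against model, -0.71 to 0.21 on the log2 scale.

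Cx3cr1, the receptor for the neuronal chemokine fractalkine, had a lowest, median and highest level of 33.0, 35.7 and 47.6 CPM in intervene libraries, 28.5, 30.4 and 43.0 CPM in model libraries and 27.8, 32.9 and 40.9 CPM in control libraries. The groups overlapped, and 2 intervene libraries, at 44.3 and 47.6 CPM, lay above every model and control library. Its log2 fold change against model was 0.23 ± 0.13 (SE; edgeR adjusted p = 0.988), and against control it was 0.21 ± 0.13 (edgeR adjusted p = 0.646).

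Tmem119, a membrane protein used as a marker that separates microglia from other brain macrophages, had a lowest, median and highest level of 15.4, 19.5 and 22.3 CPM in intervene libraries, 14.6, 20.6 and 24.7 CPM in model libraries and 17.6, 24.7 and 29.0 CPM in control libraries. Of the 9 genes it had the lowest unadjusted p of any of the 3 comparisons, at 0.0164 for intervene against control, with a log2 fold change of -0.34 (95% interval -0.61 to -0.07) and an edgeR adjusted p of 0.536. Sall1, the zinc-finger transcription factor that maintains microglial identity, had a lowest, median and highest level of 12.998, 14.7 and 17.3 CPM in intervene libraries, 11.6, 13.7 and 18.8 CPM in model libraries and 9.29, 11.5 and 16.0 CPM in control libraries. Its log2 fold change for intervene against control was 0.30 (95% interval 0.00 to 0.60) with an edgeR adjusted p of 0.592. These 2 genes had opposite signs, and neither was called.

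Siglech, a sialic acid binding lectin, averaged 17.2 ± 1.08 CPM in intervene, 16.0 ± 2.36 CPM in model and 16.0 ± 2.72 CPM in control libraries (SD, n = 6 each). Fcrls, an Fc receptor-like scavenger receptor of mouse microglia, averaged 21.0 ± 2.27 CPM in intervene, 22.3 ± 5.78 CPM in model and 22.6 ± 3.84 CPM in control libraries (SD, n = 6 each). Olfml3, a secreted glycoprotein of the olfactomedin family, averaged 25.3 ± 4.37 CPM in intervene, 20.2 ± 4.31 CPM in model and 22.9 ± 7.06 CPM in control libraries (SD, n = 6 each). Intervene against model gave Olfml3 a log2 fold change of 0.32 (95% interval -0.07 to 0.72). For these 3 genes the edgeR adjusted p lay at 0.806 or above in every comparison over all 6 libraries per group.

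**Figure D2:**
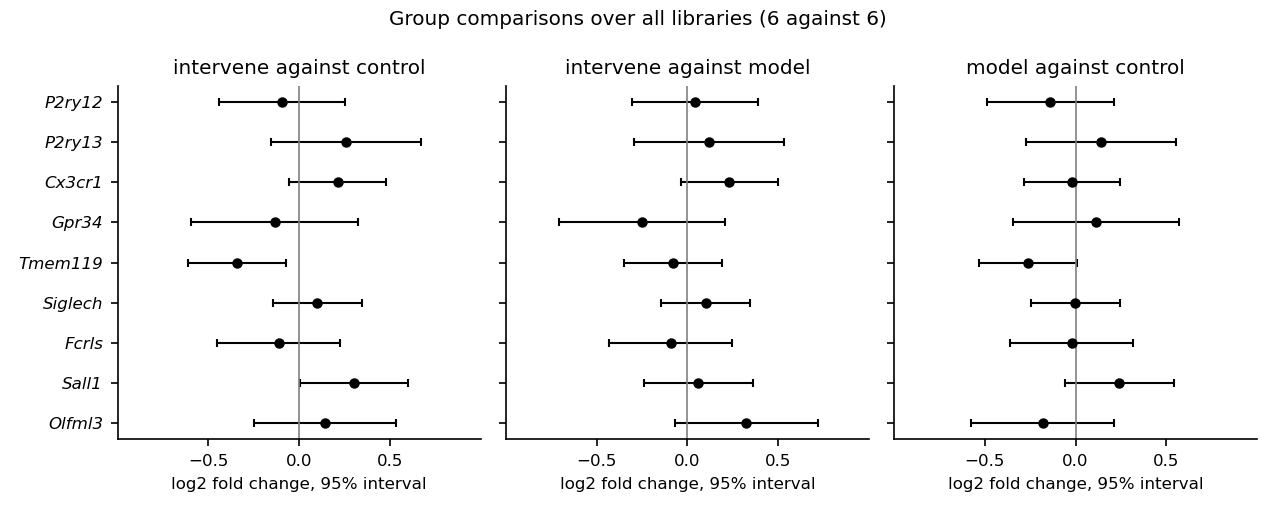
Log2 fold change (x axis) with its 95% interval for each gene over all libraries, 6 against 6, for intervene against control, intervene against model and model against control. The intervals lie within -0.71 to 0.72, and the 2 that exclude 0 are Tmem119 (-0.61 to -0.07) and Sall1 (0.00 to 0.60) for intervene against control, neither of which passed the adjusted threshold.

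Within libraries 1 to 3 the comparisons again called 0 of 9 genes, in a background of 0% of 19513 genes in each of the 3 comparisons. At an unadjusted p under 0.05 there was 1 gene for intervene against model (Cx3cr1), 1 for intervene with control (Siglech) and 0 for model with control, where 738, 1616 and 1131 of all genes were, and DESeq2 and limma-voom also called 0 of 9. For intervene against model the log2 fold change was above 0 for 9 of 9 genes, with a median of 0.21, whereas 49.3% of all genes tested lay above 0. The 9 genes varied together among libraries of the same group and set, with a median Pearson r of 0.50 over 36 pairs. Their 9 signs are therefore not separate observations. The 9 genes summed to 172 to 205 CPM in intervene libraries 1 to 3 and to 151 to 204 CPM in model libraries 1 to 3, with overlap. In libraries 4 to 6 the same comparison had 5 of 9 above 0. Cx3cr1 had the largest log2 fold change of the 9 genes for intervene against model in libraries 1 to 3. Its levels were 36.8, 44.3 and 47.6 CPM in intervene libraries 1 to 3 and 28.5, 29.9 and 43.0 CPM in model libraries 1 to 3. The groups overlapped through 1 model library, and the log2 fold change was 0.34 ± 0.16 (SE), with an unadjusted p of 0.0440 and an edgeR adjusted p of 1.00.

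Within libraries 4 to 6 the genes departed from each other. For intervene against control, Tmem119 was lower and Olfml3 higher, so that 2 of 9 genes were called, while 24.5% of all genes were called in that comparison. Tmem119 was at 15.4, 17.9 and 20.3 CPM in intervene libraries 4 to 6 and at 24.0, 25.5 and 29.0 CPM in control libraries 4 to 6. The groups did not overlap, and Tmem119 fell by 0.55 ± 0.17 on the log2 scale (SE; edgeR adjusted p = 0.0262). Without control replicate 5 the adjusted p was 0.110, without intervene replicate 4 it was 0.1004 and without intervene replicate 5 it was 0.0660. Olfml3 was at 18.6, 23.6 and 28.4 CPM in intervene libraries 4 to 6 and at 16.1, 16.3 and 18.8 CPM in control libraries 4 to 6. The lowest intervene library was below the highest control library, and the log2 fold change was 0.46 ± 0.16 (SE; edgeR adjusted p = 0.0487). The Olfml3 call was kept in 9 of 26 alternative analyses and the adjusted p ranged from 0.0164 to 0.273 over them, with 0.0701 when the replicate number was a block. Beside that background of 24.5%, the count of 2 in 9 is not a result about this group of genes.

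For intervene against model within libraries 4 to 6, 0 of 9 genes were called and 5.16% of all genes were, with 2 of 9 genes (Gpr34 and Olfml3) and 4407 of all 19513 genes at an unadjusted p under 0.05. Of the 9 log2 fold changes 5 were above 0, with a median of 0.02, as were 49.8% of those of all genes. Gpr34 was at 6.51, 7.66 and 8.39 CPM in intervene libraries 4 to 6, at 9.87, 13.4 and 13.96 CPM in model libraries 4 to 6, and at 7.69, 10.03 and 16.3 CPM in control libraries 4 to 6. The intervene libraries lay below all 3 model libraries and overlapped the control libraries. The log2 fold change against model was -0.73 ± 0.25 (SE; edgeR adjusted p = 0.0967), and DESeq2 gave an adjusted p of 0.0467 with a log2 fold change of -0.73. Against control it was -0.59 ± 0.25 (edgeR adjusted p = 0.0938). Gpr34 lies inside Cask, a gene on the opposite strand with which it shares no exon in the GENCODE annotation. Cask had 44.9 ± 4.51 CPM in intervene libraries 4 to 6, 57.0 ± 4.92 CPM in model libraries 4 to 6 and 65.1 ± 2.84 CPM in control libraries 4 to 6 (SD, n = 3 each), lower in intervene by 0.34 against model (edgeR adjusted p = 0.0352) and by 0.54 against control (edgeR adjusted p = 0.000639). Whether reads from Cask add to Gpr34 was not tested, since the labels do not say that counting used strand. Model against control within libraries 4 to 6 called 0 of 9 genes, with 0% of all genes called and 0 of 9 at an unadjusted p under 0.05.

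**Figure D3:**
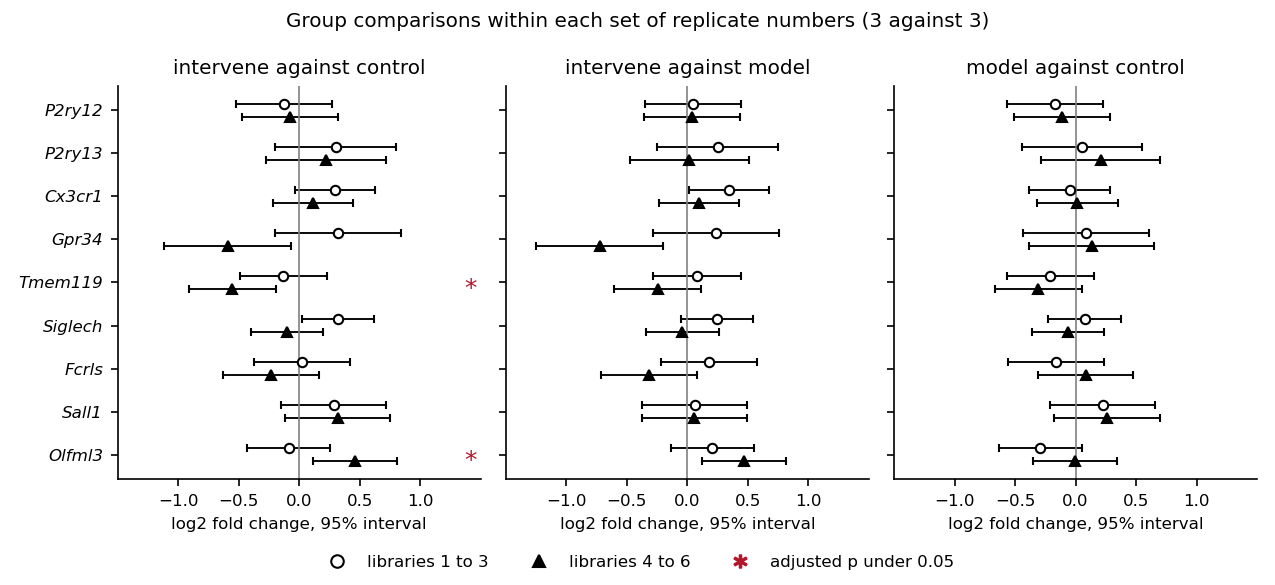
Log2 fold change (x axis) with its 95% interval for each gene within libraries 1 to 3 (open circles) and libraries 4 to 6 (filled triangles), 3 against 3, with a star where the adjusted p is under 0.05. The 2 stars are Tmem119 (-0.55) and Olfml3 (0.46) for intervene against control in libraries 4 to 6, and Gpr34 lies on opposite sides of 0 in the sets (-0.73 in libraries 4 to 6 and 0.24 in libraries 1 to 3) for intervene against model.

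The difference between the sets was tested directly as an interaction. It was called for 0 of 9 genes with intervene against model (0.333% of all genes called), for 0 of 9 with intervene against control (16.6%) and for 0 of 9 with model against control (0%). At an unadjusted p under 0.05 there were 1, 3 and 0 genes in these comparisons, beside 3219, 6071 and 2122 of all 19513 genes, and DESeq2 called 0 in each. Gpr34 had the largest difference, -0.96 ± 0.35 on the log2 scale for intervene against model (edgeR adjusted p = 0.185) and -0.91 ± 0.35 for intervene against control (edgeR adjusted p = 0.0830). The second of these was called without control replicate 4 (adjusted p = 0.0404), when its value was -1.13. For Olfml3 the difference was 0.55 ± 0.23 for intervene against control (edgeR adjusted p = 0.112), and 0.69 with an adjusted p of 0.0456 without intervene replicate 4. For Tmem119 it was -0.42 ± 0.24 (edgeR adjusted p = 0.248).

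Several markers of brain region and of other cells moved with the comparisons in libraries 4 to 6. For intervene against control, 9 of 10 thalamic neuron genes, 8 of 9 mature oligodendrocyte genes and 9 of 10 choroid plexus genes were called higher. Of all 19513 genes, 2726 were called higher in that comparison and 2052 lower. Summed oligodendrocyte markers were at 14180 to 15720 CPM in intervene libraries 4 to 6 and 7034 to 7832 CPM in control libraries 4 to 6. Summed choroid plexus markers were at 137 to 4131 CPM in intervene libraries 4 to 6 and 5.13 to 8.04 CPM in control libraries 4 to 6. Border macrophage markers summed to 9.77 to 11.9 CPM in intervene libraries 4 to 6 and 15.4 to 16.7 CPM in control libraries 4 to 6, with 0 of 9 markers at 0 counts. Markers of monocytes and neutrophils summed to 7.25 to 11.8 CPM in intervene libraries 4 to 6 and 1.03 to 4.48 CPM in control libraries 4 to 6, with 2 of the 7 tested called higher. Mitochondrial genes took 12.3%, 15.7% and 17.7% of counts in intervene libraries 4 to 6, 9.47%, 10.3% and 12.1% in model libraries 4 to 6 and 7.42%, 7.73% and 11.2% in control libraries 4 to 6. The TMM scaling factor was 0.8955 in intervene replicate 6, against 0.9541 to 1.0665 in the other libraries. The part of these differences in the values of Tmem119, Olfml3 and Gpr34 was not tested. Libraries 1 to 3 varied in such markers too. Choroid plexus markers there summed to 100 to 10493 CPM in intervene, 3367 to 5683 in model and 70.5 to 765 in control. Cortex and hippocampus neuron markers there summed to 1232 to 2900 CPM in intervene, 1939 to 3523 in model and 401 to 2584 in control. Their part in the comparisons within libraries 1 to 3 was not tested.

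Between the sets of replicate numbers, with the treatment held the same, Olfml3 was the gene that differed. Its level was 16.1, 16.3 and 18.8 CPM in control libraries 4 to 6 and 24.7, 27.8 and 33.6 CPM in control libraries 1 to 3. The sets did not overlap, and Olfml3 fell by 0.75 ± 0.16 on the log2 scale (SE; edgeR adjusted p = 0.00220), a call kept in 25 of 25 alternative analyses. In model libraries the log2 fold change of Olfml3 was -0.46 ± 0.16 (edgeR adjusted p = 0.0603) and in intervene libraries it was -0.20 ± 0.16 (edgeR adjusted p = 0.447). The count of genes called was 0 of 9 in intervene libraries, 0 of 9 in model libraries and 1 of 9 in control libraries, where 13.8%, 17.5% and 36.5% of all genes were called. At an unadjusted p under 0.05 there were 1, 4 and 2 of the 9 genes, beside 5828, 6463 and 8898 of all 19513 genes, and DESeq2 called Olfml3 and Fcrls in model libraries. In control libraries 8 of 10 thalamic neuron genes and 8 of 9 mature oligodendrocyte genes were lower in libraries 4 to 6, and 8 of 11 cortex and hippocampus neuron genes were higher. Their part in the Olfml3 value was not tested.

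P2ry12 had a positive log2 fold change for libraries 4 to 6 against 1 to 3 in each group, 0.38 ± 0.19 in intervene, 0.39 ± 0.19 in model and 0.33 ± 0.19 in control (SE), with edgeR adjusted p of 0.188, 0.160 and 0.181. In model libraries it was at 34.3, 34.6 and 37.0 CPM in numbers 4 to 6 and at 20.8, 28.7 and 31.4 CPM in numbers 1 to 3, without overlap. In intervene and in control libraries the sets overlapped. Fcrls was at 23.7, 27.1 and 28.0 CPM in model libraries 4 to 6 and at 12.5, 18.9 and 23.8 CPM in model libraries 1 to 3, with a log2 fold change of 0.51 ± 0.19 (edgeR adjusted p = 0.0681).

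The variation that remained among libraries of the same group and set was shared by some of the genes and not by others. After the mean of each combination of group and set was subtracted from log2 CPM, P2ry12 and P2ry13 had a Pearson r of 0.90 over 18 libraries, with 0.87 to 0.92 when each library was left out in turn. Subtracting 6 means leaves fewer than 18 independent values per gene. All 6 pairs among P2ry12, P2ry13, Cx3cr1 and Gpr34 had r between 0.62 and 0.90. Without control replicate 6, the library highest in P2ry12, P2ry13 and Gpr34, r was 0.50 between P2ry12 and Gpr34 and 0.56 between P2ry13 and Gpr34. All 3 pairs among Tmem119, Siglech and Fcrls had r between 0.75 and 0.84. The 12 pairs that cross these sets had r between 0.09 and 0.78, with a median of 0.43. Olfml3 had r between -0.10 and 0.57 with the other 8 genes, and Sall1 between -0.10 and 0.64. These sets of genes were chosen after the values were seen and are a description of these libraries, whose genes share the depth and scaling factor of each library. Without the subtraction, r between P2ry12 and Cx3cr1 was 0.19, against 0.86 with it, and r between P2ry12 and P2ry13 was 0.82.

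**Figure D4:**
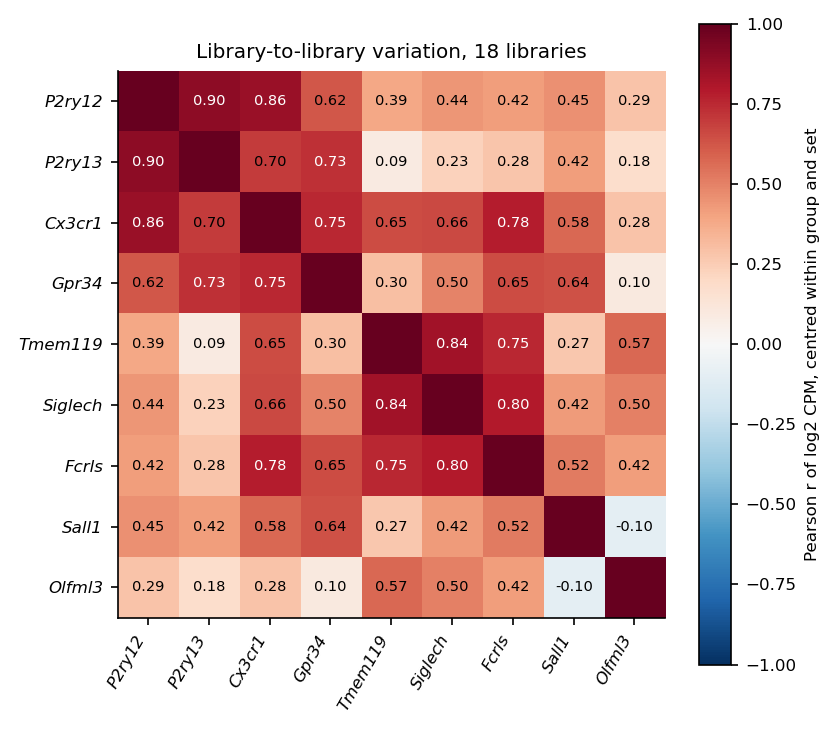
Pearson r of log2 CPM between each pair of genes over 18 libraries, after the mean of each combination of group and set was subtracted (colour scale from -1 to 1, with r printed in each cell). Subtracting these 6 means leaves fewer than 18 independent values per gene. The cells among P2ry12, P2ry13, Cx3cr1 and Gpr34 run from 0.62 to 0.90, those among Tmem119, Siglech and Fcrls from 0.75 to 0.84, and the row of Olfml3 from -0.10 to 0.57.

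The exons of P2ry12 and Med12l overlap on opposite strands. Whether reads in the shared bases add to the P2ry12 value or are lost from it was not tested. Med12l had 4.14 to 8.46 CPM over the 18 libraries, and P2ry12 had 20.8 to 47.1 CPM. P2ry13 lies in an intron of Med12l and shares no exon with it. Cx3cr1 shares exonic bases with the antisense gene Gm33858 in the GENCODE annotation.

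Among 13705 other genes with a mean of at least 1 CPM, those that followed the mean standardised level of the 9 genes most closely over all 18 libraries were Pik3cg (r = 0.81), Crym (r = 0.79), Cdca8 and Csf1r (r = 0.78 each), Serp1 and Cd300c2 (r = 0.77 each), Hccs (r = 0.75), Tmco5 and Ctss (r = 0.74 each) and Psph (r = 0.73). With the group and set means subtracted, the 10 highest ran from Ptafr and Fjx1 (r = 0.89 each), Csf1r and Rap2b (r = 0.88 each), Tmco5, Pik3cg and Hpcal4 (r = 0.86, 0.86 and 0.85) to Rfc5, Klf16 and Mcrs1 (r = 0.84 each). Pik3cg, Csf1r and Tmco5 were in both. Csf1r, the receptor for the microglial survival factors CSF1 and IL-34, had an r of 0.64 without the subtraction and 0.82 with it when the 2 libraries farthest from the median were left out. With those libraries left out, the 10 genes ran from 0.545 (Tmco5) to 0.754 (Serp1) without the subtraction. With the subtraction they ran from 0.756 (Rfc5) to 0.864 (Ptafr). All these genes were picked as the highest r among 13705, so a high r was built into their choice.

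Genes shared by microglia and other macrophages, such as the complement gene C1qb and the immunoreceptor adaptor gene Fcer1g, were counted beside the 9 genes. Over all 6 libraries per group 0 of 18 were called in any comparison, with a median log2 fold change of 0.24 (intervene against model) and 0.30 (intervene against control), against 0.06 and 0.10 for the 9 genes and 0.00 for all genes tested in each. Within libraries 4 to 6, intervene against control, 4 of 18 were called higher and 0 lower, where 2726 of all 19513 genes were called higher and 2052 lower. Spi1, which encodes PU.1, was at 10.6, 10.9 and 17.0 CPM in intervene libraries 4 to 6, at 5.72, 7.15 and 8.30 CPM in model libraries 4 to 6 and at 4.10, 4.51 and 5.38 CPM in control libraries 4 to 6. The intervene libraries lay above all others in this set, and Spi1 rose by 1.46 ± 0.25 on the log2 scale against control (SE; edgeR adjusted p = 0.000709). Against model the Spi1 value was 0.86 ± 0.24 (edgeR adjusted p = 0.0488), a call lost in 16 of 26 alternative analyses. Fcer1g rose by 1.10 ± 0.22 and Ly86, a partner of the receptor RP105, by 0.86 ± 0.18 against control. In libraries 1 to 3 the Spi1 value was 0.03 ± 0.25 against control. The 9 homeostatic genes made up 20.2% ± 1.10 of the summed CPM of both lists in intervene libraries 4 to 6, 23.1% ± 1.80 in model libraries 4 to 6 and 24.1% ± 1.05 in control libraries 4 to 6 (SD, n = 3 each). The homeostatic genes themselves summed to 186 ± 10.5 CPM in intervene, 189 ± 12.1 CPM in model and 191 ± 30.6 CPM in control libraries 4 to 6, and the other list summed to 739 ± 83.7 CPM in intervene, 630.05 ± 37.9 CPM in model and 599 ± 62.4 CPM in control (SD, n = 3 each). In libraries 1 to 3 the share was 23.0% ± 0.913 in intervene, 22.2% ± 0.623 in model and 23.4% ± 0.695 in control (SD, n = 3 each). Markers of monocytes and neutrophils summed to 7.25 to 11.8 CPM in intervene, 1.07 to 2.12 CPM in model and 1.03 to 4.48 CPM in control libraries 4 to 6. The part of such cells and of brain region in the share and in the genes of the shared list was not tested.

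Reactive microglia are the state in which the homeostatic genes are known to fall. Of 19 genes known to rise in reactive microglia, 0 were called over all 6 libraries per group. Relative to control, their median log2 fold change was 0.91 in intervene, with 18 of 19 above 0, and 0.45 in model, with 17 of 19 above 0. Relative to model, the intervene median was 0.34, with 17 of 19 above 0. Within libraries 4 to 6, 9 of 19 were called higher and 1 lower for intervene against control, beside 2726 higher and 2052 lower of all 19513 genes. For intervene against model, 5 of 19 were called higher and 0 lower, beside 655 higher and 352 lower of all 19513 genes. Cd63, a tetraspanin of endosomes, rose by 0.96 ± 0.11 (SE; edgeR adjusted p = 4.9e-05), Apoe, the lipid carrier, by 0.79 ± 0.10 (edgeR adjusted p = 0.000127) and Ccl4, a chemokine, by 3.75 ± 0.59 (edgeR adjusted p = 0.000423) against control. Against model, Cd63 rose by 0.72 ± 0.11, Apoe by 0.55 ± 0.10 and Ccl4 by 2.87 ± 0.56 on the log2 scale, and without model replicate 4 the count against model was 2 of 19 and Ccl4 was not called (adjusted p = 0.0720). The 1 gene called lower against control was Igf1, a growth factor, at -0.74 ± 0.22, named after its value was seen and not called without control replicate 4 or 5 or intervene replicate 5 or 6. Cd63 and Apoe also differed with the treatment held the same, by -0.99 ± 0.11 and -0.67 ± 0.10 for control libraries 4 to 6 against control libraries 1 to 3, where 5 of 19 reactive genes were lower and 1 higher, beside 3637 lower and 3494 higher of all 19513 genes. In intervene libraries 4 to 6 the 19 reactive genes summed to 4695 to 5081 CPM and the 9 homeostatic genes to 176 to 197 CPM. The reactive sum was 3503 to 3804 CPM in model libraries 4 to 6 and 3014 to 3549 CPM in control libraries 4 to 6. In libraries 1 to 3 the reactive sum was 4292 to 4796 CPM in intervene, 4318 to 4818 CPM in model and 4467 to 4760 CPM in control. Bulk tissue does not show which cells the reactive gene transcripts came from. The part of brain region and of cells other than microglia in the reactive gene values was not tested. In libraries 1 to 3, 0 of 19 were called for intervene against control, with a median of 0.83.

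**Figure D5:**
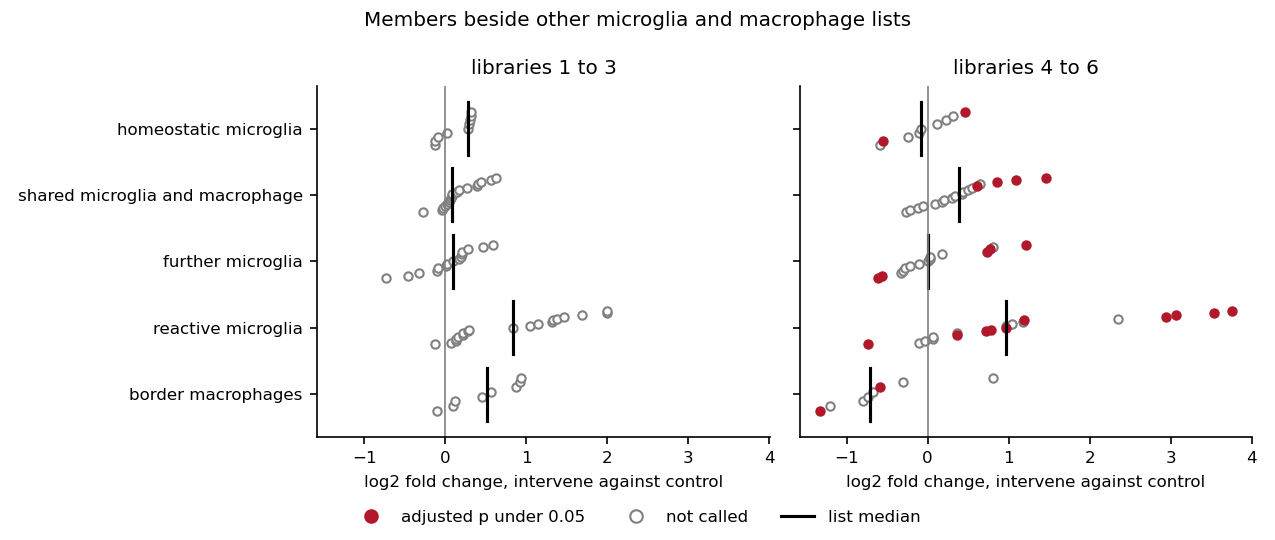
Log2 fold change of intervene against control (x axis, the same scale in both panels) for each gene of 5 lists, in libraries 1 to 3 and libraries 4 to 6, with filled points for an adjusted p under 0.05 and a black line for the list median. In libraries 4 to 6 the median is -0.08 for the homeostatic genes and 0.96 for the reactive genes, and 1 homeostatic gene is called on each side of 0. In libraries 1 to 3 the median is 0.29 for the homeostatic genes and 0.83 for the reactive genes, and no gene of either list is called.

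Of 15 further microglia genes, 3 were called higher and 2 lower for intervene against control within libraries 4 to 6. The background for each count of intervene against control in this paragraph is 24.5% of all genes, with 2726 of 19513 called higher and 2052 lower. Kcnk13, which encodes a potassium channel of microglia, rose by 0.76 ± 0.17, while Tgfbr1, a receptor for transforming growth factor beta, fell by 0.56 ± 0.13 on the log2 scale (edgeR adjusted p of 0.00431 and 0.00424). Of 14 ligands and signalling partners of the 9 genes, 4 were called higher and 2 lower. Gnai2, an inhibitory G protein subunit to which P2ry12 couples, rose by 1.01 ± 0.11 (edgeR adjusted p = 3.2e-05) and Csf1 by 0.85 ± 0.14 (edgeR adjusted p = 0.000563) in the same comparison. Il34, the neuronal ligand of Csf1r, was at 27.6, 30.0 and 33.2 CPM in intervene libraries 4 to 6, at 42.4, 43.5 and 45.4 CPM in model libraries 4 to 6 and at 52.1, 53.3 and 58.3 CPM in control libraries 4 to 6. The 3 groups did not overlap, and Il34 fell by 0.85 ± 0.11 against control and by 0.53 ± 0.11 against model (edgeR adjusted p of 0.000114 and 0.0135), the second lost without intervene replicate 5 (0.0707). Il34 also rose by 1.06 ± 0.11 in control libraries 4 to 6 against control libraries 1 to 3 (edgeR adjusted p = 1e-05). Within libraries 1 to 3 the Il34 values were 0.14 ± 0.11 against control and 0.04 ± 0.11 against model. Between the same control sets, 5 of the 14 partner genes were called higher and 2 lower. Of the 15 further microglia genes, 2 were called higher and 3 lower there, beside 3494 higher and 3637 lower of all 19513 genes. The part of brain region in the values of this paragraph was not tested. Of 8 border macrophage genes tested, Cd163 and Stab1 were called lower for intervene against control within libraries 4 to 6, at -1.32 ± 0.37 and -0.58 ± 0.15, and Cd163 was not called without control replicate 5 or without intervene replicate 6.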

How the data were processed

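The submitters' processing notes list HISAT2 (an aligner), featureCounts (a read counter) and the build GRCm39, without versions. The authors deposited raw counts and FPKM for 50559 genes in 18 libraries. The deposited FPKM are the counts over gene length and library total, with the same whole length in all libraries for 18117 of 18117 genes counted in each (relative tolerance 1e-06), so they are no independent measurement. All those lengths were even, and 52.4% to 63.9% of counts of at least 50 were even, so FPKM may be too low by a factor of 2 and both mates of a pair may be counted, which no source states. Within groups, pairs of libraries differed with a chi-square of at least 11.4 per degree of freedom, so no library repeated another within sampling noise.

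Counts were scaled by TMM, filtered with filterByExpr and tested with edgeR 4.0.16 in R 4.3.3 (robust quasi-likelihood F test), with 3 group means (18452 genes) or 6 means of group and set of replicate numbers (19513 genes). Adjustment (Benjamini-Hochberg) ran over all genes tested, with a threshold of 0.05. The standard error is the log2 fold change over the square root of F, and intervals are 95%. Log2 CPM for correlations used a prior count of 2. Fits were tested on simulated data. Alternatives used DESeq2 1.42.0, limma 3.58.1 (voom, and log2 of FPKM plus 1 or 0.1), other scalings, no filter, a replicate block, the set as covariate, and leaving out each library. Gene symbols are the table's own.

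The 9 genes, the 13 other lists and the division of replicate numbers were chosen with earlier results of these data known. Named genes are the 9 genes, up to 3 of each other list per comparison by lowest p among those called, and the 10 closest genes by each correlation, and not every name is printed. Same-numbered libraries of model and control deviated together in 6 of 6 pairs (r 0.18 to 0.63 over genes), but with the mean of each group and set subtracted only 3 of 6 exceeded 0.1 (-0.18 to 0.24), and the labels do not state a pairing. Intervene had 5 of 6 pairs over 0.1 with model and 3 of 6 with control. Printed values come from fits without a block, which was run as an alternative.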

Additional observations from a re-analysis of the deposited data

Results flagged for a closer look

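Of 27 sets of 6 libraries (9 genes in 3 groups), 3 held a library far from the others by Dixon's test at the 95% level, which chance flags in about 1 of 20. Cx3cr1 was at 43.0 CPM in model replicate 1, against 33.8 CPM in the next model library. P2ry13 was at 17.3 CPM in control replicate 6, against 10.8 CPM in the next control library, and Gpr34 was at 16.3 CPM in control replicate 6, against 10.03 CPM in the next. Control replicate 6 also held the highest P2ry12 level of all 18 libraries, 47.1 CPM.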

How the results depend on the processing

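The counts of homeostatic genes over all 6 libraries per group, and within libraries 1 to 3, stayed at 0 of 9 under every alternative run, including the replicate block and the set as a covariate. Elsewhere, for intervene against control in libraries 4 to 6, 1 gene in place of 2 was called with limma-voom, RLE factors, library totals, FPKM plus 1, FPKM plus 0.1 and the replicate block, and 0 to 2 when each library was left out in turn. DESeq2 called 1 gene (Gpr34) for intervene against model in libraries 4 to 6, and leaving out libraries gave 0 to 1. For libraries 4 to 6 against 1 to 3, DESeq2 called 2 genes (Olfml3 and Fcrls) in model and library totals, FPKM plus 1 and FPKM plus 0.1 called 1 (Olfml3), with 0 to 2 leaving out libraries, and control had 1 to 2. The interaction for intervene against control had 0 to 1 leaving out libraries. Of 3510 values of single homeostatic genes under alternatives, 3474 stayed on the same side of the threshold, 20 lost and 16 gained a call, and 0 changed sign where called. Of 1014 values of other called genes, 85 lost their call and 0 changed sign. The replicate block changed no other call of the 9 genes. The causes were not tested.

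Counts over all genes moved more. DESeq2 called 2 genes for intervene against model, 73 for intervene against control and 2 for model against control, where edgeR called 0, and the set as a covariate called 66 for intervene against control, with FPKM plus 1 and FPKM plus 0.1 at 1. In libraries 1 to 3 DESeq2 called 1, 59 and 11 in the same order. In libraries 4 to 6 DESeq2 called 1872 for intervene against model (edgeR 1007, 154 to 1217 leaving out libraries) and 218 for model against control (edgeR 0). For intervene against control the edgeR count was 4778, with 2845 to 4933 leaving out libraries. Between the sets, edgeR called 2685 genes in intervene (984 to 3179 leaving out libraries) and 3407 in model (1209 to 3764). The interaction for intervene against model was called for 65 genes by edgeR, 704 by DESeq2, 14 with library totals, 120 with no filter, 35 with FPKM plus 0.1 and 2 to 567 leaving out libraries, and for model against control for 219 by DESeq2 and 0 by edgeR. No block could be fitted to the differences between sets of numbers within a group, since number and set coincide there. Residual limits are the unstated time and strand of counting, the division by replicate number, and 3 libraries per group and set. Where a gene was not called, a difference of a size within its printed interval was not excluded.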
